A study of Mus musculus with 4 samples.

Results

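The genes described here encode the enzymes that hydroxylate proline and lysine in newly made collagen, with the collagen chaperone gene Serpinh1. They are P4ha1, P4ha2, P4ha3, P4hb, P3h1, Plod1, Plod2, Plod3 and Serpinh1, matched by gene symbol, and all 9 were found among the 54838 genes listed. RNA came from Hepa1-6, a mouse hepatocellular carcinoma cell line, in 2 groups of 2 libraries: NC, wild type for Acvr2a, and KO, in which Acvr2a (a type II activin receptor gene) was knocked out. The design text calls the knockout cells subclones, and whether the KO libraries are separate subclones or cultures of 1 is not given, so the spread between libraries may be technical. Every sample is labelled liver, and no treatment or time is given for any of them. The set was chosen by its expected counts and TPM (a level scaled by transcript length and library) in KO against NC. The members' levels, fold changes, intervals and adjusted p in that contrast are therefore a description and no test of the set.

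Collagen chains are modified in the endoplasmic reticulum before they fold into a triple helix. Prolyl 4-hydroxylase is a tetramer of alpha subunits (P4ha1, P4ha2 or P4ha3) and beta subunits (P4hb, which is also protein disulfide isomerase), and its product, 4-hydroxyproline, stabilises the helix. P3h1 hydroxylates single prolines in a complex with Crtap and the prolyl isomerase Ppib, the Plod genes encode lysyl hydroxylases whose products carry sugars and cross-links, and Serpinh1 (HSP47) binds the folded helix and escorts it out of the reticulum. The hydroxylases need oxygen, iron, 2-oxoglutarate and ascorbate. P4ha1, P4ha2 and several Plod genes are known targets of the hypoxia-inducible factors, whose binding sites hold the core ACGTG or GCGTG.

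Because P4ha1, P4ha2 and P4hb were higher together in KO while Serpinh1 and P4ha3 were nearly silent, the 250 bases before the annotated start of these 5 genes are shown, 5′ to 3′ on the gene's strand, with ACGTG and GCGTG on either strand in capitals. Sequences are from RefSeq on GRCm38.p6, where 8 of the 9 genes had an entry and Plod2 had none. The windows lie at chr11:54100674-54100923 (plus strand, inside the gene's GENCODE span and outside its exons), chr10:59323046-59323295 (plus), chr11:120573254-120573503 (minus), chr7:99353240-99353489 (minus) and chr7:100285270-100285519 (plus).
P4ha2: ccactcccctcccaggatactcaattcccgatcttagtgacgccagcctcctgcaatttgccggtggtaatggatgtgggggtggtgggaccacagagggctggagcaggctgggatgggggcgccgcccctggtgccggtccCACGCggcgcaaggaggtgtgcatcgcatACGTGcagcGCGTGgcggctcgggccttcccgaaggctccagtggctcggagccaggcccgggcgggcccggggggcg
P4ha1: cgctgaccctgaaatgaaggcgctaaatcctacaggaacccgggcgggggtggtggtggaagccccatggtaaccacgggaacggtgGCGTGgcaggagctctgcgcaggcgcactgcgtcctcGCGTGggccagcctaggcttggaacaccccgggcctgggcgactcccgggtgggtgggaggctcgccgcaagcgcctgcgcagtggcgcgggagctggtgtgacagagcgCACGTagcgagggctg
P4hb: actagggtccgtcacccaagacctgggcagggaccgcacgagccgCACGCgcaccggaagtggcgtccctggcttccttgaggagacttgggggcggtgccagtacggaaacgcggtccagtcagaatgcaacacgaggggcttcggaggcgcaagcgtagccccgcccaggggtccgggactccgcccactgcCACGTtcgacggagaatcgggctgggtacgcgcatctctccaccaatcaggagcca
Serpinh1: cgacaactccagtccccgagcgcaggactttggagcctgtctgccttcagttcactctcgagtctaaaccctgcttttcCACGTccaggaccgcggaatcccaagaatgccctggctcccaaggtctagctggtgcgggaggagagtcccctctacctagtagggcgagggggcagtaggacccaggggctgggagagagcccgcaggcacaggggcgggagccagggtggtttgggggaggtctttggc
P4ha3: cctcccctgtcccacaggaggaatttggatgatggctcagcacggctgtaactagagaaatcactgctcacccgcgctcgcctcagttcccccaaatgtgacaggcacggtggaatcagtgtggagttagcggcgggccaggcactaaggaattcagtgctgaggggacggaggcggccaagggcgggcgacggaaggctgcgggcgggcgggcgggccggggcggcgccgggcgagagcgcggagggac
P4ha2 and P4ha1 had 3 matches each, P4hb had 2, Serpinh1 had 1 and P4ha3 had 0. In the windows that are not printed, Plod3 had 4 matches, Plod1 had 1 and P3h1 had 2 at either of its starts. In P4ha2 all 3 lay between 107 and 69 bases before the start, and in P4ha1 they began 163, 126 and 16 bases before it. At least 1 match was present in 38.6% of all 32851 windows of this length and at least 3 in 6.58%. The members' windows are rich in G and C (54.8% to 70% against a median of 52.4%). Among the 13478 windows with at least 55% G and C, 58.3% held a match and 13.1% held at least 3. Those windows are not matched to P4ha1 and P4ha2, which held 69.6% and 70% G and C. A match is a description of these letters and no evidence of binding. Plod3, with the most matches, was among the members with the smallest differences between the groups. A link between matches and levels was not tested.

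The libraries held 11597923 to 13910582 counts, 12510 genes passed the filter on low counts, and 4741 of them (37.9%) passed an adjusted p of 0.05 (edgeR's quasi-likelihood test), with a median log2 fold change of -0.004 over all tested genes. Acvr2a, the targeted gene, was counted 81 and 108 times in NC against 75 and 97 in KO. Its log2 fold change, -0.21 (SE 0.20), did not pass (adjusted p = 0.433) and was -0.059 without KO 1 and -0.40 without KO 2. The groups are named by their labels, which the RNA of the targeted gene does not check. That total is over the whole gene, and its exons overlap those of Orc4. Of 8 hepatocyte and hepatoma markers, 7 passed the filter and Ttr had at most 1 count in any library. Of the 7, Alb (log2 fold change 0.40, adjusted p = 0.00224) and Trf (0.54, adjusted p = 4.31e-05) were higher in KO, and Afp (-1.21, adjusted p = 1.01e-10) and Hnf4a (-0.995, adjusted p = 4.27e-09) were lower. The list's summed level was 2469 to 2578 TPM in NC and 2836 to 2981 TPM in KO. Fibroblasts and stellate cells make most collagen in liver, and of 9 of their markers Col3a1, Lum and Thy1 were at 0, Col1a2, Acta2 and Pdgfrb had at most 2 counts in any library, and Dcn was at 1032 to 1234 TPM. The summed level of those 9, nearly all Dcn (log2 fold change 0.16, adjusted p = 0.193), was 1034 and 1097 TPM in NC and 1236 and 1240 TPM in KO. Pdgfra was higher in KO (140 and 157 counts in NC, 290 and 329 in KO, log2 fold change 0.97, adjusted p = 5.42e-06). Col1a1, the last of the 9, was counted 6 and 5 times in NC against 38 and 41 times in KO. The 3 tested markers, Dcn, Pdgfra and Col1a1, had a median log2 fold change of 0.97. Col1a1 reached the filter's minimum in both KO libraries and not in both NC libraries. Without it the median of the 2 others was 0.57. The endothelial markers summed to at most 0.48 TPM. Of the 5 leukocyte and macrophage markers, Adgre1 and Cd3e had at most 1 count in any library, Ptprc had at most 2, and the list's sum, mostly Cd68, went from 24.4 and 28.4 TPM to 56.3 and 68.2 TPM. The part of other cells in the results was not tested. In bulk RNA, fewer cells of a type and less RNA per cell cannot be told apart.

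Of the members, 6 were measured in every library and the remaining 3 were nearly absent from all 4. The 6 were higher in both KO libraries than in both NC libraries, on CPM (counts scaled to library size by TMM) and on TPM alike. P4ha2 differed most, with a 3.13-fold higher level in KO, followed by Plod1 (1.95-fold), P4ha1 (1.92-fold) and P4hb (1.48-fold), while P3h1 and Plod3 were each 1.18-fold higher. In the fit over all genes 5 of the 6, all but P3h1, passed 0.05 and were higher. Of tested genes, 37.9% were called, 19.7% higher and 18.2% lower. The log2 fold change was above 0 for all 6, as for 49.6% of tested genes. The groups did not overlap for all 6, as for 69.4% of tested genes, and for 34.8% with KO higher. Since the contrast chose the set, nothing is read from these counts. The median log2 fold change of the 6 was 0.75.

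**Figure D1:**
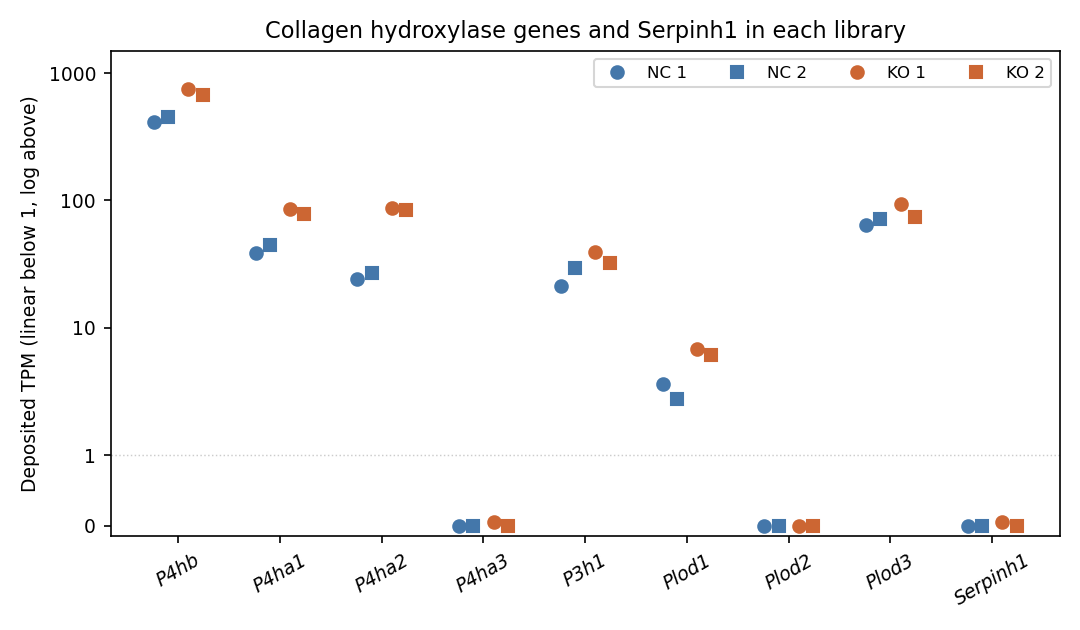
Deposited TPM of the 9 genes in each library (circles replicate 1, squares replicate 2; NC blue, KO orange) on an axis that is linear below 1 and logarithmic above. P4hb stands highest in all 4 libraries, and P4ha3, Plod2 and Serpinh1 lie at or within 0.05 TPM of 0.

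Of the catalytic alpha subunits of prolyl 4-hydroxylase, P4ha2 had the highest fold change among the members. P4ha2 (ENSMUSG00000018906.14, chromosome 11, 54100095 to 54131665, plus strand of GRCm38) was counted 443 and 595 times in the NC libraries and 1625 and 1807 times in the KO libraries. Per length, its level was 24.2 and 27.1 TPM in NC and 87.3 and 83.8 TPM in KO. The KO libraries lay close together and far above either NC library. In CPM the gene went from 41.0 ± 2.83 to 128.6 ± 7.38 (SD, n = 2). The log2 fold change was 1.65 (SE 0.10, 95% interval 1.45 to 1.85), and 97.6% of tested genes had a lower fold change. P4ha1 (ENSMUSG00000019916.14, chromosome 10, 59323296 to 59373304, plus strand), the alpha subunit usually found in most tissues, was counted 1135 and 1524 times in NC against 2690 and 2684 times in KO. Its level was 38.5 and 45.0 TPM in NC and 85.4 and 78.2 TPM in KO. The log2 fold change was 0.94 (SE 0.09, 95% interval 0.75 to 1.13), from 104.9 ± 7.22 to 201.4 ± 3.87 CPM. On the log2 CPM scale NC 2 exceeded NC 1 by 0.14 for both genes, and KO 2 minus KO 1 was 0.12 for P4ha2 and -0.04 for P4ha1.

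P4ha1 was the more abundant alpha subunit in NC and the pair was level in KO. The ratio of P4ha2 to P4ha1 TPM was 0.630 and 0.601 in NC and 1.02 and 1.07 in KO. P4ha2 thus held 38.6% and 37.5% of the summed alpha subunit TPM in NC and 50.5% and 51.7% in KO. The sum itself went from 62.7 and 72.1 TPM to 172.7 and 162.1 TPM. P4ha3 (ENSMUSG00000051048.17, chromosome 7, 100285520 to 100319699, plus strand), the third alpha subunit, had 1 count in KO 1 and 0 in the other libraries.

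The beta subunit gene was the most abundant member by a wide margin. P4hb (ENSMUSG00000025130.11, chromosome 11, 120560298 to 120573253, minus strand) was counted 10039 and 12901 times in NC against 17913 and 17896 times in KO. This was 414.9 and 450.9 TPM for NC and 757.4 and 678.9 TPM for KO, groups far apart. Over the 4 libraries its mean TPM ranked 202 among all genes listed. The CPM went from 907.3 ± 34.3 to 1342 ± 24.6 (SD, n = 2). The log2 fold change was 0.56 (SE 0.09, 95% interval 0.37 to 0.76), so its interval lay below that of P4ha2. P4hb TPM was 6.62 and 6.25 times the summed alpha subunit TPM in NC and 4.39 and 4.19 times in KO. The deposited mean transcript length of P4hb, which RSEM weights by isoform abundance, was 2503 and 2550 bases in NC and 2322 and 2408 in KO. TPM divides by this length, and the fold of the group means was 1.66 on TPM against 1.48 on CPM. Plod1, with the same deposited length of 3243 bases in each library, had 2.03 on TPM against 1.94 on CPM. What makes up the gap between the scales was not tested.

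**Figure D2:**
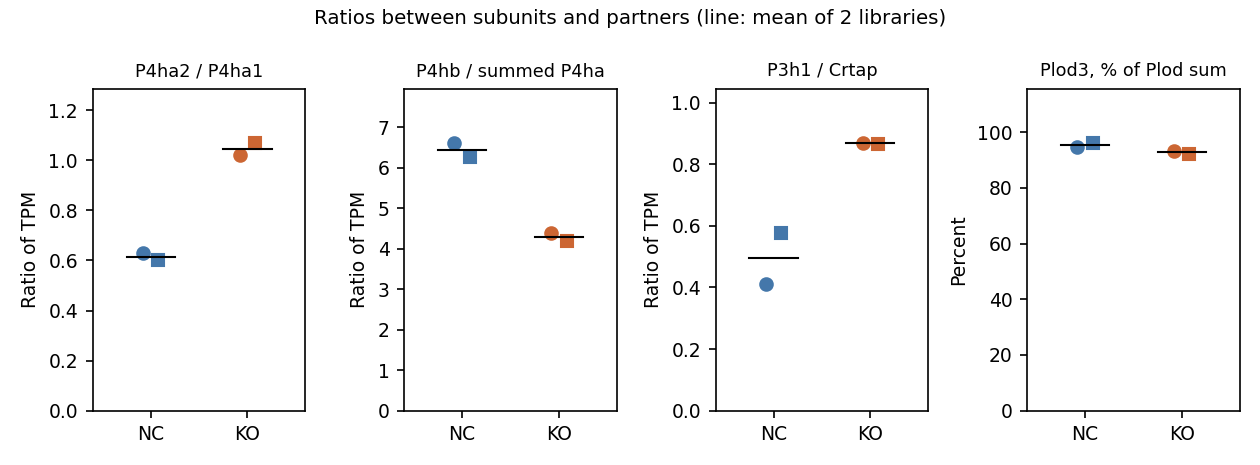
Ratios of deposited TPM in each library for P4ha2 to P4ha1, P4hb to the summed alpha subunits and P3h1 to Crtap, and the share of Plod3 in the summed Plod genes (circles replicate 1, squares replicate 2, lines group means). P4ha2 to P4ha1 lies at 0.601 to 0.630 in NC and 1.02 to 1.07 in KO, while the share of Plod3 stays above 92% in each library.

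For the prolyl 3-hydroxylase, the size of the difference depended on the scale. P3h1 (ENSMUSG00000028641.16, chromosome 4, 119232915 to 119248975, plus strand) was counted 589 and 731 times in NC against 814 and 836 times in KO. In CPM it was 51.8 and 52.8 in NC and 61.8 and 61.9 in KO, a log2 fold change of 0.24 (SE 0.10, 95% interval 0.04 to 0.44). Its deposited mean transcript length was 2827 and 2241 bases in NC and 2066 and 2370 in KO, ranges that overlap. In TPM it was 21.3 and 29.5 for NC against 39.3 and 32.3 for KO. On the log2(TPM + 1) scale its log2 fold change was 0.49, against 0.24 on counts. P3h1 TPM was 0.412 and 0.578 of Crtap TPM in NC and 0.870 and 0.866 in KO, so on TPM P3h1 was nearer to its partner in KO. On CPM, which is not divided by length, P3h1 was below Crtap in NC (Crtap 69.0 and 65.4) and above it in KO (55.7 and 47.3). Ppib, the isomerase of the complex, stood at 226.6 to 252.9 TPM in the 4 libraries, and P3h1 was 0.092 and 0.118 of it in NC and 0.155 and 0.142 in KO.

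Among the lysyl hydroxylases Plod3 was the main transcript. Plod3 (ENSMUSG00000004846.10, chromosome 5, 136987019 to 136996648, plus strand), whose product also adds glucose to galactosyl-hydroxylysine, was counted 1700 and 2019 times in NC against 2404 and 2258 times in KO. It stood at 63.7 and 72.2 TPM in NC and 93.4 and 74.0 TPM in KO, and KO 2 exceeded NC 2 by less than the gap between the NC libraries. The log2 fold change was 0.24 (SE 0.09, 95% interval 0.05 to 0.43), from 147.7 ± 2.64 to 174.8 ± 10.8 CPM (SD, n = 2). Plod3 shares exon sequence with Znhit1 on the opposite strand and with Mir702 on its own, and how strand was handled in counting is unknown, so its total is uncertain. Plod1 (ENSMUSG00000019055.15, chromosome 4, 147909753 to 147936767, minus strand), which hydroxylates lysines within the helix, was far lower, counted 116 and 103 times in NC against 233 and 223 times in KO. That is 3.61 and 2.77 TPM in NC against 6.83 and 6.10 TPM in KO. Its log2 fold change of 0.97 had the widest interval of the members (SE 0.17, 0.62 to 1.31), and the NC libraries differed by 0.45 on the log2 CPM scale, NC 1 being higher. Plod3 made up 94.6% and 96.3% of the summed Plod TPM in NC and 93.2% and 92.4% in KO.

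**Figure D3:**
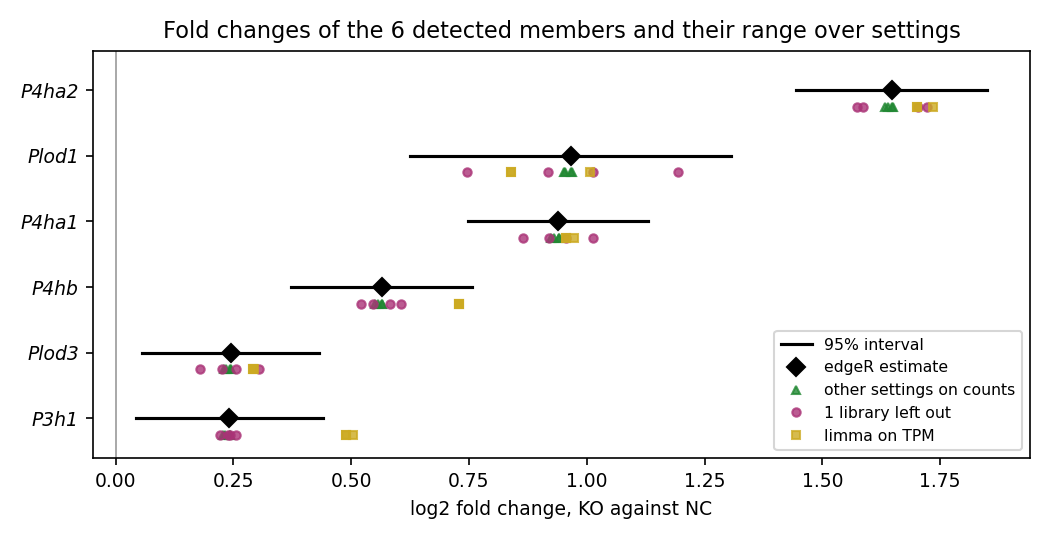
Log2 fold changes (KO against NC) of the 6 detected members with the 95% interval of the edgeR fit (diamond and line), and below each the values under other settings on counts (triangles), with 1 library left out (circles) and with limma on TPM (squares). All values lie above 0, P4ha2 stays between 1.57 and 1.74, and the TPM values of P3h1 and P4hb lie to the right of the others.

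Plod2 and Serpinh1 were the members with next to no reads. Plod2 (ENSMUSG00000032374.14, chromosome 9, 92542223 to 92608428, plus strand), the lysyl hydroxylase that acts on the telopeptides of fibrillar collagen, had 0 counts in all 4 libraries. A count of 0 in the 51928025 counts of the series allows a level of up to 0.0578 CPM, and 0.216 to 0.259 CPM in a single library. Serpinh1 (ENSMUSG00000070436.12, chromosome 7, 99345376 to 99353239, minus strand) had 1 count in KO 1 and 0 elsewhere. No fold is given for these genes or for P4ha3, since both groups are at or under the floor of 3 counts per library. They share this state with many genes, as 7991 of 21998 protein-coding genes (36.3%) had 0 or 1 count over the 4 libraries. Their neighbours on the chromosome were read: Gdpd5, 28174 bases from Serpinh1, had 178 to 391 counts per library, Pgm2l1 and Ppme1, either side of P4ha3, had 337 to 474 and 1494 to 1954, and Plscr4, 49766 bases from Plod2, had 132 to 234. Map6, 8238 bases from Serpinh1 on its other side, had at most 2 counts in any library. Serpinh1 and P4ha3 lie 932280 bases apart on chromosome 7, and 9 of the 17 protein-coding genes between them passed the filter.

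The order of the members by TPM differed between the groups in the middle of the range. In NC it ran from P4hb through Plod3 (67.9 ± 6.01 TPM), P4ha1 (41.8 ± 4.63), P4ha2 (25.6 ± 2.01) and P3h1 (25.4 ± 5.81) to Plod1 (3.19 ± 0.59), and P4ha2 and P3h1 did not differ beyond their spread. In KO, P4ha2 (85.5 ± 2.42), Plod3 (83.7 ± 13.7) and P4ha1 (81.8 ± 5.05) had overlapping libraries, with P4hb above them and P3h1 (35.8 ± 4.94) and Plod1 (6.46 ± 0.52) below.

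The lists that follow are read beside all tested genes, of which 37.9% passed 0.05 with a median of -0.004. The first holds 10 genes that act beside the members on collagen. Of these 6 were tested, 3 were higher and 1 was lower past 0.05, with a median log2 fold change of 0.32. Colgalt1, which adds galactose to hydroxylysine ahead of Plod3, rose from 154.5 ± 4.98 to 209.3 ± 20.2 CPM (SD, n = 2; log2 fold change 0.44, SE 0.09, adjusted p = 0.000590). Its weakly expressed relative Colgalt2 rose by 1.38 (SE 0.38, from 0.29 and 0.42 TPM to 1.11 and 0.93 TPM), and the prolyl isomerase gene Fkbp14 by 0.62 (SE 0.20). Crtap, the partner of P3h1, fell (log2 fold change -0.38, SE 0.10, adjusted p = 0.00406), from 69.0 and 65.4 CPM to 55.7 and 47.3 CPM. The genes not tested were the prolyl 3-hydroxylase genes P3h2 and P3h3 with 0 counts, P3h4 with 1, and Fkbp10, a foldase that works with Plod2 and Serpinh1, with 3 over the 4 libraries. Without KO 2 the list had 2 calls, as Crtap (-0.27, adjusted p = 0.0794) and Fkbp14 (0.32, adjusted p = 0.365) no longer passed, and Fkbp14 was also lost without NC 2 (0.51, adjusted p = 0.0915). DESeq2 did not call Colgalt2 (adjusted p = 0.0744) or Fkbp14 (adjusted p = 0.158).

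As protein disulfide isomerase, P4hb passes electrons to the Ero1 oxidases, and a list of 12 such partners was examined. Of the 10 tested, 3 were higher past 0.05 and 0 lower (edgeR's quasi-likelihood test; 5 of the 10 had an unadjusted p under 0.05), with a median of 0.16. Ero1l, the main oxidase that recharges P4hb, rose from 131.8 and 137.5 CPM in NC to 317.7 and 414.4 CPM in KO, by 1.44 (SE 0.10, adjusted p = 4.25e-11). The ratio of Ero1l to P4hb TPM was 0.0932 and 0.0855 in NC and 0.139 and 0.193 in KO. Ero1lb, at 0.64 to 2.62 TPM, rose (log2 fold change 1.15, SE 0.33, adjusted p = 0.00617), and Pdia6 by 0.29 (SE 0.09, adjusted p = 0.0131). Other isomerases did not pass, among them Pdia3 (log2 fold change -0.11) and Pdia4 (0.17), picked after their values were seen. The call for Ero1lb was lost without NC 1 (0.82, adjusted p = 0.0864), without KO 2 (0.98, adjusted p = 0.0899) and with DESeq2 (adjusted p = 0.0929), and that for Pdia6 without NC 2 (0.25, adjusted p = 0.116).

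The collagen chains, substrates of the members, were compared as a list. Of 33 collagen chain genes 14 were tested, 9 were higher and 0 lower past 0.05 (edgeR's quasi-likelihood test, 11 with an unadjusted p under 0.05; DESeq2 called 8, all higher), with a median of 0.74. The summed TPM of the 33 went from 153.9 and 169.7 in NC to 261.9 and 257.0 in KO. Col18a1 rose from 180.4 ± 0.75 to 284.7 ± 0.12 CPM (log2 fold change 0.66, SE 0.09, adjusted p = 1.95e-06), and Col4a2, a basement membrane chain, from 92.2 ± 2.20 to 163.8 ± 0.56 CPM (0.83, SE 0.09, adjusted p = 8.27e-08). Col6a1 (0.92, SE 0.10) and Col16a1 (1.99, SE 0.27) rose as well. Of the fibrillar chains, Col3a1, Col5a2 and Col11a1 had 0 counts, Col1a2 and Col5a1 had 1, and Col2a1 and Col5a3 had 8 each over the 4 libraries. Col27a1, also fibril-forming, was higher, at 6.87 and 9.62 TPM in NC and 12.3 and 12.7 TPM in KO (0.56, SE 0.10, adjusted p = 0.000119). Col1a1 and Col11a2 reached the filter's minimum in both KO libraries and not in both NC libraries. Leaving them out, 8 of 12 tested chains were higher and 0 lower, with a median of 0.61. Conversely Col12a1, which was not called, reached that minimum in both NC libraries and not in both KO libraries. Col4a2 overlaps exons of Col4a1 and Gm15419 on the other strand.

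**Figure D4:**
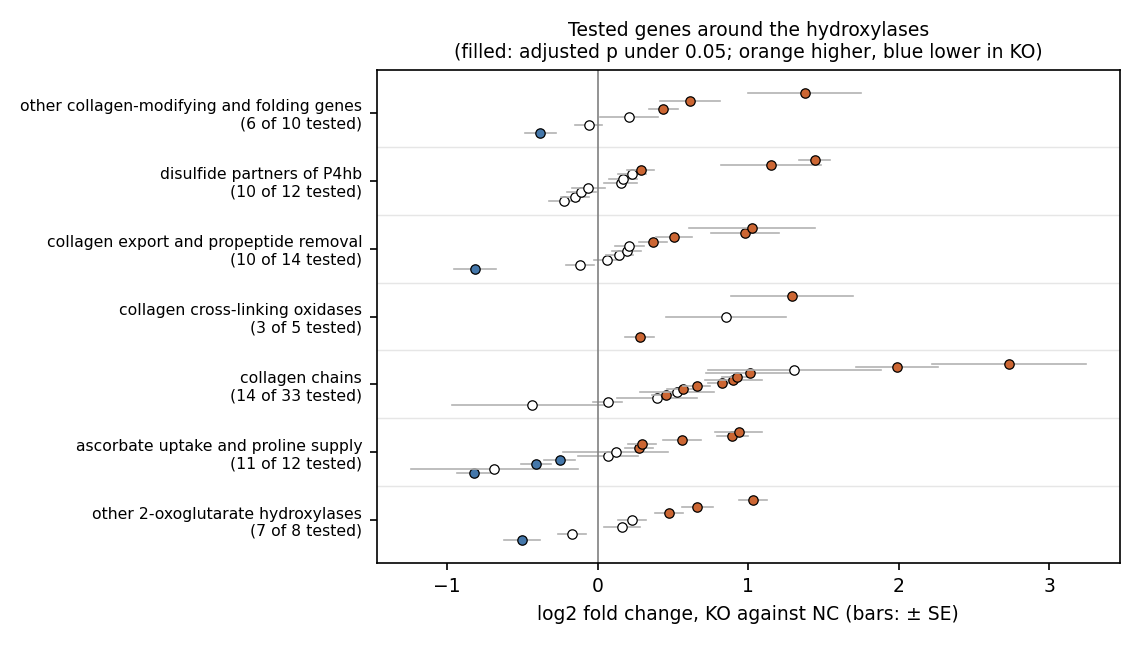
Log2 fold changes (KO against NC, bars ± SE) of the tested genes in the 7 lists around the hydroxylases, filled where the adjusted p was under 0.05 (orange higher, blue lower in KO). In the collagen chain list 9 of 14 tested genes are orange and 0 blue, while the list for ascorbate and proline holds 5 orange and 3 blue.

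For export and propeptide removal, 14 of 15 listed symbols were found, 10 were tested, 4 were higher and 1 was lower, with a median of 0.20. The coat genes Sec23a (0.51, SE 0.12, adjusted p = 0.00138) and Sec24d (0.37, SE 0.10, adjusted p = 0.00330) and the procollagen N-proteinase gene Adamts14 (0.98, SE 0.22, adjusted p = 0.000950) rose. So did Creb3l1, a transcription factor gene for the secretory pathway, singled out after its value was seen (1.02, SE 0.42, adjusted p = 0.0497). Pcolce2, an enhancer of C-propeptide cleavage, fell by 0.82 on the log2 scale (log2 fold change -0.82, SE 0.14), from 23.6 and 25.4 to 15.4 and 12.4 CPM. Of the 5 cross-linking oxidases 3 were tested, and Loxl4 (0.28, SE 0.10, adjusted p = 0.0231) and Loxl3 (1.29, SE 0.40, adjusted p = 0.0109) rose, against a list median of 0.85. Lox had 0 counts and Loxl1 had 1. Sec24d was lost without NC 1 (adjusted p = 0.105), as was Creb3l1 (adjusted p = 0.289), leaving 3 calls in the export list. Creb3l1 was also lost without KO 1 (adjusted p = 0.0882) or KO 2 (adjusted p = 0.312), Loxl4 without NC 1 (0.19, adjusted p = 0.273) or KO 1 (0.20, adjusted p = 0.140), and Loxl3 without NC 2, KO 1 or KO 2 (adjusted p = 0.105, 0.0673 and 0.0650). The value of Sec23a was 0.34 without KO 2.

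Cofactor and substrate supply moved both ways. Of 12 genes for ascorbate uptake and proline supply 11 were tested, 5 were higher and 3 lower, with a median of 0.12. The ascorbate transporter gene Slc23a2 rose from 19.0 and 19.2 to 27.9 and 28.6 CPM (0.56, SE 0.13, adjusted p = 0.000878), and Slc2a3, whose product can carry dehydroascorbate as well as glucose, rose by 0.90 (SE 0.10). Proline synthesis was split: Pycr1 rose by 0.94 (SE 0.16) and Pycrl fell by 0.82 (log2 fold change -0.82, SE 0.11). Among the other calls, and named after their values were seen, Slc2a1 (0.28) and Aldh18a1 (0.29) were higher and Pepd (-0.41) was lower. Leaving out NC 1 reduced the list to 5 calls, and of the 3 genes just named only Pepd kept its call without each library in turn. Slc2a1 was lost without NC 1, NC 2 or KO 1 (adjusted p = 0.111, 0.0684 and 0.115) and Aldh18a1 without NC 1 (adjusted p = 0.228).

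Hydroxylases of the same enzyme class with other substrates were also measured. Of 8 genes 7 were tested, 3 were higher and 1 lower, with a median of 0.23. Egln3, which hydroxylates the hypoxia-inducible factors, rose from 138.0 ± 1.39 to 282.3 ± 15.4 CPM (1.03, SE 0.09, adjusted p = 1.57e-09), and Egln1 rose by 0.47 (SE 0.09, adjusted p = 0.000215). Asph, an aspartyl hydroxylase, rose by 0.66 (SE 0.10, adjusted p = 9.75e-06). Egln2 fell (log2 fold change -0.50, SE 0.12, adjusted p = 0.00166), and P4htm, the transmembrane prolyl hydroxylase gene, had 1 count in all.

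Some of these calls rest on the count scale or on edgeR. With limma on filtered log2(TPM + 1), Crtap (adjusted p = 0.119), Fkbp14 (0.193), Sec23a (0.0520, with a log2 fold change of 0.98), Sec24d (0.204), Loxl4 (0.0836), Creb3l1 (0.0866), Slc2a1 (0.0816), Aldh18a1 (0.193) and Pepd (0.0843) did not pass, nor did Adamts14 at a pseudocount of 0.1 (0.0592). DESeq2 did not call Loxl3 (adjusted p = 0.146), Loxl4 (0.0609), Creb3l1 (0.299) or Aldh18a1 (0.0576). Creb3l1 was also lost without the filter on low counts (adjusted p = 0.0511). Each kept its direction. Ero1l, Egln3, Col18a1, Col4a2, Col6a1 and Col16a1 passed under all of these settings, though not with unfiltered TPM.

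The genes whose profiles over the 4 libraries were most like those of the members at either end were found by Euclidean distance between centred log2 CPM values. Nearest to P4ha2, the member with the highest fold change, were Spns2 (distance 0.0472), Vax2 (0.0627), Plxna3 (0.0686), Gbp3 (0.0728) and Ltbp4 (0.0762), with log2 fold changes of 1.63, 1.75, 1.72, 1.78 and 1.59. Spns2 ran at 14.5 and 16.3 CPM in NC and 45.0 and 50.6 CPM in KO. Nearest to P3h1, the member with the lowest, were Cited2 (0.0138), Otud7b (0.0162), Ttc17 (0.0209), Atp6v0d1 (0.0224) and Eml4 (0.0259), with log2 fold changes of 0.23 to 0.26. Cited2 was the most abundant of these, at 395.3 and 404.9 CPM in NC and 468.3 and 469.1 CPM in KO.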

How the data were processed

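RNA-seq libraries (2 NC, 2 KO) were analysed, 1 deposited file each. Per the file headers, the authors' expected counts are unscaled RSEM estimates per gene, and the deposited TPM values are the authors' length-scaled levels. The deposited FPKM values were not used. The submitters' processing notes name FastQC, STAR, RSEM and DESeq2 and the builds GRCm38 and mm10, and the annotation release and strand setting are not given in the sources used here. RSEM shares reads among similar transcripts, so overlapping genes are uncertain. Besides those named above, exons overlap a protein-coding gene on the other strand for other genes reported as called. Among them are Loxl3 (Htra2), Colgalt1 (Unc13a), Fkbp14 (Plekha8), Pdia6 (Atp6v1c2), Asph (Clvs1) and Egln2 (Cyp2t4). Coordinates are from GENCODE M21 (GRCm38), 1-based, to which 54809 of 54838 gene IDs matched without the version number.

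Counts were rounded to whole numbers, filtered with edgeR's filterByExpr, scaled by TMM and compared with edgeR's quasi-likelihood test (edgeR 4.0.16, R 4.3.3), with group as the only term and Benjamini-Hochberg adjustment over 12510 genes. The fit was first tested on simulated counts. Standard errors come from the fitted weights and the moderated dispersion. Intervals and floors cover counting error and library spread only, since PCR copies were not separated from molecules. Totals of 11597923 to 13910582 counts set the precision. Alternatives used DESeq2 1.42.0, limma 3.58.1 on TPM, other scaling and filters, each library left out and a replicate block. The replicates differed beyond sampling noise (chi-square per degree of freedom 6.88 for NC and 9.44 for KO), and each library counted as 1 sample. That excess may be technical and does not show that the libraries are independent cultures.

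The members, the 7 lists around them, the marker lists and the promoter motifs were chosen with earlier results of these data known. Genes named are the members, up to 4 genes per list with the lowest p past 0.05, the 5 nearest profiles of the members with the highest and lowest fold change, and Acvr2a. Any other gene was named after its values were seen. Of the genes counted in the lists, 1 is not reported here by name.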

Additional observations from a re-analysis of the deposited data

How the results depend on the processing

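The alternatives reuse the libraries by which the members were chosen, so for the members they describe the processing and give no independent support. Over 11 alternatives, 0 of 66 member fold changes reversed and 54 stayed within 1 SD of the replicates. The 12 that did not were for P3h1, P4ha1 and P4hb, 0.22 to 0.50, 0.87 to 1.01 and 0.52 to 0.73. Members past 0.05 numbered 4 to 6, and 0 with unfiltered TPM. Plod3 did not pass without the filter on low counts, with DESeq2 or with filtered TPM. With 1 library left out, its log2 fold change was 0.255 (without NC 1), 0.226 (NC 2), 0.179 (KO 1) and 0.304 (KO 2). P3h1 passed only with RLE scaling and with the replicate block. For all genes the count of 4741 was 2868 with DESeq2, 2158 and 2099 with filtered TPM at pseudocounts of 1 and 0.1, and 0 with unfiltered TPM, where 4506 genes and 4 members had an unadjusted p under 0.05. Calls were 51.9% higher on counts and 68% higher on filtered TPM. The cause was not tested. Unfiltered TPM also gave 0 calls in each of the 7 lists around the members, with 2 unadjusted for the modifying and folding genes, 4 for the disulfide partners, 5 for export, 2 for cross-linking, 10 for collagen chains, 6 for ascorbate and proline and 5 for the other hydroxylases.

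Filtered TPM at pseudocounts of 1 and 0.1 gave 2 and 2 calls among modifying and folding genes (2 with DESeq2), 3 and 2 in export, 1 and 1 in cross-linking and 4 and 4 in ascorbate and proline. Cross-linking had 0 with DESeq2 (2 unadjusted). With 1 library left out, the lone sample of its group being assumed to vary like the other group, all genes gave 3507 to 4488 calls, members 4 to 5, modifying and folding 2 to 4, disulfide partners 2 to 3, export 3 to 5, cross-linking 0 (without KO 1) to 1, collagen chains 8 to 9, ascorbate and proline 5 to 7 and other hydroxylases 4 to 4.

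Replicate numbers show no pairing: deviations of same-numbered libraries correlated at -0.0116. The replicate block gave 5006 calls and 6 members, and the same counts as without it for the other lists. Depth limits Plod2, P4ha3 and Serpinh1, for which levels under the floor of 3 counts are not detectable.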
